A study of Mus musculus with 8 samples.

Results

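The interferon receptor chains and Janus kinases are the first steps through which a cell answers interferon. The type I receptor pairs Ifnar1 with Ifnar2, the type II (interferon gamma) receptor pairs Ifngr1 with Ifngr2, and the type III (interferon lambda) receptor pairs Ifnlr1 with Il10rb, a chain also used by the interleukin 10 and interleukin 22 receptors. None of these chains has enzyme activity of its own, and each carries a Janus kinase (Jak1, Jak2 or Tyk2) on its inner end that phosphorylates STAT transcription factors once ligand has joined the chains. Jak3, the fourth kinase of the family, binds the common gamma chain of the interleukin 2 receptor family and is found mainly in blood cells. In the cornea, type I and type III interferon act on the epithelium as well as on infiltrating leukocytes.

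The 10 genes were chosen by name, as 6 receptor chains and 4 kinases, and all 10 had a row among the 16091 genes of the table. The samples were mouse corneas, 4 labelled Opn5-/- (here Opn5-null, lacking the gene of opsin 5, a short-wavelength photopigment) and 4 labelled wild-type, all of them debrided of epithelium and collected 12 hours later. The labels give neither strain nor age, nor whether each library is a separate animal, so the p-values rest on a spread between libraries whose source, technical or biological, is not known. That spread was above counting noise, with a chi-square per gene from 45.9 to 199 between Opn5-null libraries and from 10.4 to 30.4 between wild-type ones. All 8 titles carry the word Light, which the labels do not explain. Recovered reads per library ranged from 21111715 to 28219234, and the smallest count of any of the 10 genes in a library was 184 reads. The targeted gene, Opn5, was not analysed here, so the genotypes rest on the labels. The corneal markers Krt12 and Kera were detected in every library, with at least 15836 normalized counts of Krt12 and 3847 of Kera.

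Of the 10 genes, 7 were higher in Opn5-null corneas and 0 were lower, at a Benjamini-Hochberg adjusted p below 0.05 in a limma fit over 16085 genes. Over all genes tested, 18.8% were called higher and 13.5% lower. Of all calls 58.2% were higher, against 40.3% after quantile normalization and 40.8% after upper-quartile scaling, while no member changed direction under either. The 7 were Il10rb, Ifnar2, Ifnar1 and Ifngr2 among the receptor chains and Jak2, Jak3 and Jak1 among the kinases, and in each of them all 4 Opn5-null libraries lay above all 4 wild-type libraries. That separation was found in 20.3% of all genes tested, and the opposite one in 18.1%. Ifngr1, Ifnlr1 and Tyk2 did not pass the threshold, and their groups overlapped. The 4 chains that rose are neighbours on chromosome 16, while Ifngr1 is on chromosome 10 and Ifnlr1 on chromosome 4. In the authors' deposited table the same 7 genes had an adjusted p below 0.05, with log2 fold changes from 0.43 for Jak1 to 1.92 for Il10rb.

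Promoter sequences from RefSeq (build GRCm38.p6), running from 250 bases before to 50 bases after the annotated start, are shown for the 4 rising genes with the largest fold changes that had an entry, to show what lies at the starts of members that moved together; whether these windows have a part in the difference was not tested. The table held 9 of the 10 members, and Il10rb was the other. Capitals mark the STAT-binding GAS motif TTCNNNGAA and the GC box GGGCGG, each searched on both strands, so that a GC box on the other strand reads CCGCCC.

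Ifnar2, chr16:91372533-91372832, plus strand: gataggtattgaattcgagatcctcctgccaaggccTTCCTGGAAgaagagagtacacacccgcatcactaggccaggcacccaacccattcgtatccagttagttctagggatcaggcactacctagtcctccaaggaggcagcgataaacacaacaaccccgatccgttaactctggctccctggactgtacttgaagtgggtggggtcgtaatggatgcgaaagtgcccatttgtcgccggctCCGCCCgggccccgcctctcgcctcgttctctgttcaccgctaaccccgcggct

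Ifnar1, chr16:91484965-91485264, plus strand: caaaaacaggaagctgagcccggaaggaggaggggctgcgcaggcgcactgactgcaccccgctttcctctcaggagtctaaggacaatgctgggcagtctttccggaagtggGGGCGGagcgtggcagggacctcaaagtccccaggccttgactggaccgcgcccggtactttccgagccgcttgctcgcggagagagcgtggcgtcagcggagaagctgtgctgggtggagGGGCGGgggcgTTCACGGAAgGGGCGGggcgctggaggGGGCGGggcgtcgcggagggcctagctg

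Ifngr2, chr16:91546809-91547108, plus strand: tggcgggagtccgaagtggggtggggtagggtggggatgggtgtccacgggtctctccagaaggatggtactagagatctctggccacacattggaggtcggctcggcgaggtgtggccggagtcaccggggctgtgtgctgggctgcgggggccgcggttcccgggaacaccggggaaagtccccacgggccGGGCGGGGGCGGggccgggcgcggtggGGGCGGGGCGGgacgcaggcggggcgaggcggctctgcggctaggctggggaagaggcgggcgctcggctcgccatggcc

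Jak2, chr19:29251553-29251852, plus strand: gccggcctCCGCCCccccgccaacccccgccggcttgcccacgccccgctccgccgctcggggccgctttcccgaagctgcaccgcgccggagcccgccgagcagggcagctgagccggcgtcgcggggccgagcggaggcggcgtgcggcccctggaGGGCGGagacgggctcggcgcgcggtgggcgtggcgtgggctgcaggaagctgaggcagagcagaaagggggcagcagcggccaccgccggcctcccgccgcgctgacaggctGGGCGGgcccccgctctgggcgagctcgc

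The GAS motif occurred once each in Ifnar2 and Ifnar1, beginning at base -214 in Ifnar2 and at base -5 in Ifnar1, counted from the annotated start with no base 0. It was found in 2 of the 9 member promoters, against 8.3% of the 32851 promoters of the same length. The interferon-stimulated response element core GAAANNGAAA was found in 0 of the 9 and in 3.44% of all promoters. The GC box was found in all 9, the 3 genes that were not called included, against 35.7% of all promoters. The promoters searched were not matched to the members in GC content or expression. Ifngr2 held 4 matches, of which the first pair abut and the second pair overlap, Ifnar1 held 4, Jak2 3 and Ifnar2 1. G and C made up 81.0% of the Jak2 window and 74.3% of the Ifngr2 window, against a median of 52.7%. A match describes letters in the window and not a bound site.

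Ifnar2 encodes the high-affinity chain of the type I receptor (ENSMUSG00000022971, chromosome 16, 91372783 to 91405589 in GENCODE M21, GRCm38). It measured 2677, 1947, 1379 and 1982 normalized counts in the Opn5-null libraries A to D, against 518, 600, 610 and 616 in the wild-type libraries A to D. The lowest Opn5-null library stood 2.24-fold above the highest wild-type library. Its log2 fold change was 1.73 ± 0.18 (SE, limma adjusted p = 0.00034), a ratio of means of 3.41.

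Ifnar1, the chain to which Tyk2 binds, (ENSMUSG00000022967) begins 112 kb from the start of Ifnar2 on the same strand. It had 5104, 3979, 2708 and 3695 normalized counts in Opn5-null A to D, against 1481, 1650, 1606 and 1630 in wild-type A to D. The wild-type libraries lay within 1.11-fold of one another, whereas the Opn5-null libraries spread 1.88-fold, all of them above wild-type. The log2 fold change was 1.25 ± 0.17 (SE, limma adjusted p = 0.00104), a ratio of 2.43.

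Both type I chains were thus higher, but not in proportion. The ratio of Ifnar2 to Ifnar1 counts within a library was 0.525, 0.490, 0.509 and 0.537 in Opn5-null A to D, against 0.351, 0.364, 0.380 and 0.378 in wild-type A to D. All Opn5-null ratios were above all wild-type ratios, and the mean log2 ratio differed by 0.48 (exact two-sided permutation p = 0.0286, the smallest that 4 against 4 samples allow, and 0.0343 after adjustment over 6 ratios). Ratios between genes were taken after 1 was added to each value. Apart from that, a ratio within a library does not depend on how libraries were scaled.

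For the type II receptor, the chains behaved differently. Ifngr2, the signalling chain that carries Jak2, had 3503, 2720, 2341 and 2552 normalized counts in Opn5-null A to D, against 1346, 1345, 1431 and 1327 in wild-type A to D. The groups did not overlap, and the log2 fold change was 1.01 ± 0.12 (SE, limma adjusted p = 0.000549), a ratio of 2.04. Ifngr1, the ligand-binding chain that carries Jak1, had 7225, 7963, 6472 and 3614 normalized counts in Opn5-null A to D, against 4837, 5168, 5243 and 5158 in wild-type A to D.

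Opn5-null D fell below every wild-type library for Ifngr1, while the other Opn5-null libraries lay above every wild-type library. The log2 fold change of Ifngr1 was 0.25, with a 95% interval from -0.26 to 0.76 (limma adjusted p = 0.422). Without Opn5-null D it was 0.50 and passed the threshold (limma adjusted p = 0.00231), and in limma-voom with sample quality weights it was 0.57 (adjusted p = 0.00185). In Opn5-null D the mean log2 level of 10 corneal epithelial markers minus the wild-type mean was -2.52, compared with -0.94, -0.48 and -0.46 in Opn5-null A, B and C, and the part of this in the Ifngr1 value was not tested. In bulk tissue, fewer cells of a type and less RNA per cell cannot be told apart. The ratio of Ifngr2 to Ifngr1 was 0.485, 0.342, 0.362 and 0.706 in Opn5-null A to D, against 0.278, 0.260, 0.273 and 0.257 in wild-type A to D. It was higher in all Opn5-null libraries, with a mean log2 difference of 0.76 (exact permutation p = 0.0286, adjusted 0.0343).

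The type III receptor showed the widest gap between partner chains. Il10rb (ENSMUSG00000022969) begins 574 bases beyond the end of Ifnar2 on the same strand and had the largest change of the 10 genes. It measured 5580, 3902, 2318 and 3926 normalized counts in Opn5-null A to D, against 877, 1059, 1079 and 1140 in wild-type A to D. The lowest Opn5-null library was 2.03-fold above the highest wild-type one, and the log2 fold change was 1.86 ± 0.24 (SE, limma adjusted p = 0.000858), a ratio of 3.78. This placed Il10rb above 94.0% of all genes tested.

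Ifnlr1, the chain that is specific to interferon lambda and is expressed mainly in epithelia, was the least abundant receptor chain per kilobase of exon. Its counts were 412, 306, 345 and 268 in Opn5-null A to D, against 350, 278, 315 and 270 in wild-type A to D, so the groups overlapped. The log2 fold change was 0.12, with a 95% interval from -0.22 to 0.46 (limma adjusted p = 0.561), which lies wholly under the interval of Il10rb, 1.32 to 2.40. The ratio of Ifnlr1 to Il10rb counts was 0.0740, 0.0786, 0.149 and 0.0685 in Opn5-null A to D, against 0.399, 0.263, 0.293 and 0.238 in wild-type A to D. It was lower in every Opn5-null library, with a mean log2 difference of -1.74 (exact permutation p = 0.0286, adjusted 0.0343).

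Jak2, which serves the interferon gamma receptor and the receptors of many growth factors, changed most among the kinases. It measured 11469, 8565, 5193 and 7609 normalized counts in Opn5-null A to D, against 2997, 3309, 3204 and 3012 in wild-type A to D. Every Opn5-null library was at least 1.57-fold above the highest wild-type library. The log2 fold change was 1.34 ± 0.21 (SE, limma adjusted p = 0.00219), a ratio of 2.62.

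Jak1, which serves all types of interferon receptor, had 11084, 9563, 7949 and 9086 normalized counts in Opn5-null A to D, against 6623, 6964, 7620 and 6808 in wild-type A to D. The groups did not overlap, but Opn5-null C was only 1.04-fold above wild-type C. The log2 fold change was 0.42 ± 0.11 (SE, limma adjusted p = 0.0180), a ratio of 1.35. The call was lost without wild-type A (adjusted p = 0.0613), without wild-type D (adjusted p = 0.0537) and after quantile normalization, where the log2 fold change was 0.21 (adjusted p = 0.0583).

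Jak3 was present at the lowest level of the family per kilobase of exon, with 354, 313, 236 and 276 normalized counts in Opn5-null A to D, against 188, 198, 202 and 192 in wild-type A to D. The groups did not overlap, with a log2 fold change of 0.58 ± 0.13 (SE, limma adjusted p = 0.0117) and a ratio of 1.51. Il2rg, the common gamma chain that Jak3 binds, averaged 718 ± 229 normalized counts in Opn5-null corneas, against 103 ± 33.4 in wild-type ones (SD, n = 4), a log2 fold change of 2.78 (limma adjusted p = 0.000307).

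Tyk2, the kinase on Ifnar1 and Il10rb, had 921, 780, 614 and 611 normalized counts in Opn5-null A to D, against 629, 573, 700 and 706 in wild-type A to D. Opn5-null A and B were above every wild-type library, and C and D were inside the wild-type range. The log2 fold change was 0.15, with a 95% interval from -0.18 to 0.48 (limma adjusted p = 0.463).

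**Figure D1:**
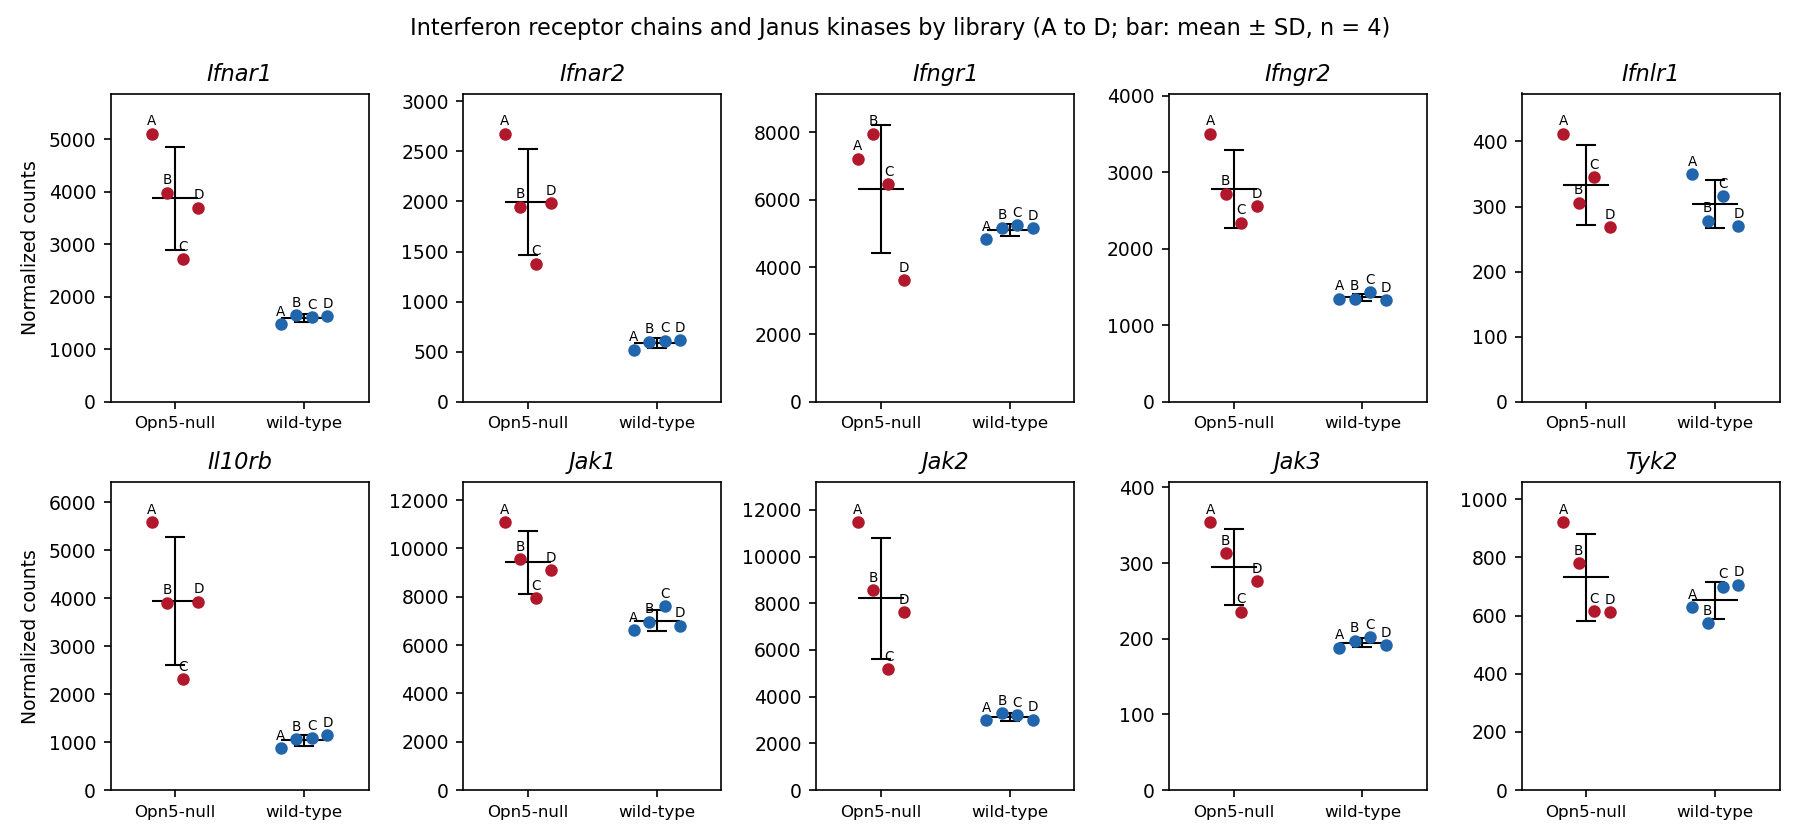
Normalized counts of the 10 genes in each library, 1 panel per gene, with Opn5-null libraries in red and wild-type libraries in blue, letters A to D, and the mean ± SD of 4 libraries as a bar; each vertical axis starts at 0. In 7 panels all red points lie above all blue points, while Ifngr1, Ifnlr1 and Tyk2 overlap, and Opn5-null A is the highest red point in 9 panels.

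**Figure D2:**
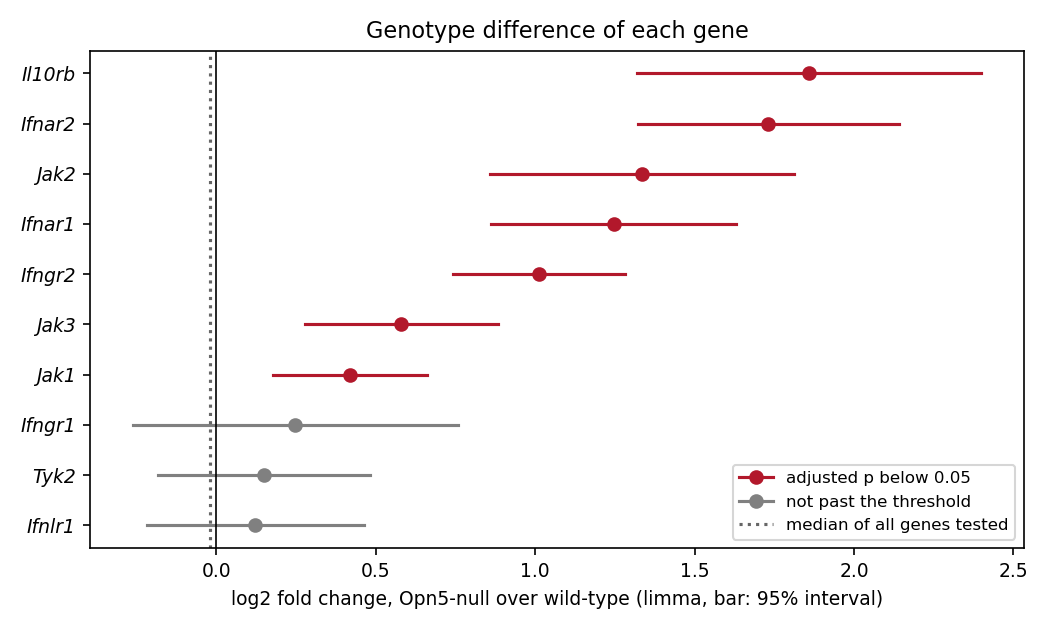
The log2 fold change of each gene, Opn5-null over wild-type, with its 95% interval from limma, and a dotted line at the median of all genes tested, -0.02. Il10rb is at the top with 1.86 and Ifnlr1 at the bottom with 0.12, and the intervals of Ifngr1, Tyk2 and Ifnlr1 cross 0.

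Ratios within a library compared the kinases with one another. The ratio of Jak2 to Jak1 counts was 1.03, 0.896, 0.653 and 0.837 in Opn5-null A to D, against 0.453, 0.475, 0.421 and 0.442 in wild-type A to D. The mean log2 ratio was higher by 0.92 in Opn5-null corneas (exact permutation p = 0.0286, adjusted 0.0343). Jak3 over Jak1 was higher by 0.16 on the log2 scale, with the same exact permutation p and adjusted p. Tyk2 over Jak1 was -3.70 ± 0.138 in Opn5-null corneas, against -3.43 ± 0.138 in wild-type ones as a mean log2 ratio (SD, n = 4), a difference of -0.27 that did not pass (exact permutation p = 0.0571, also after adjustment).

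**Figure D3:**
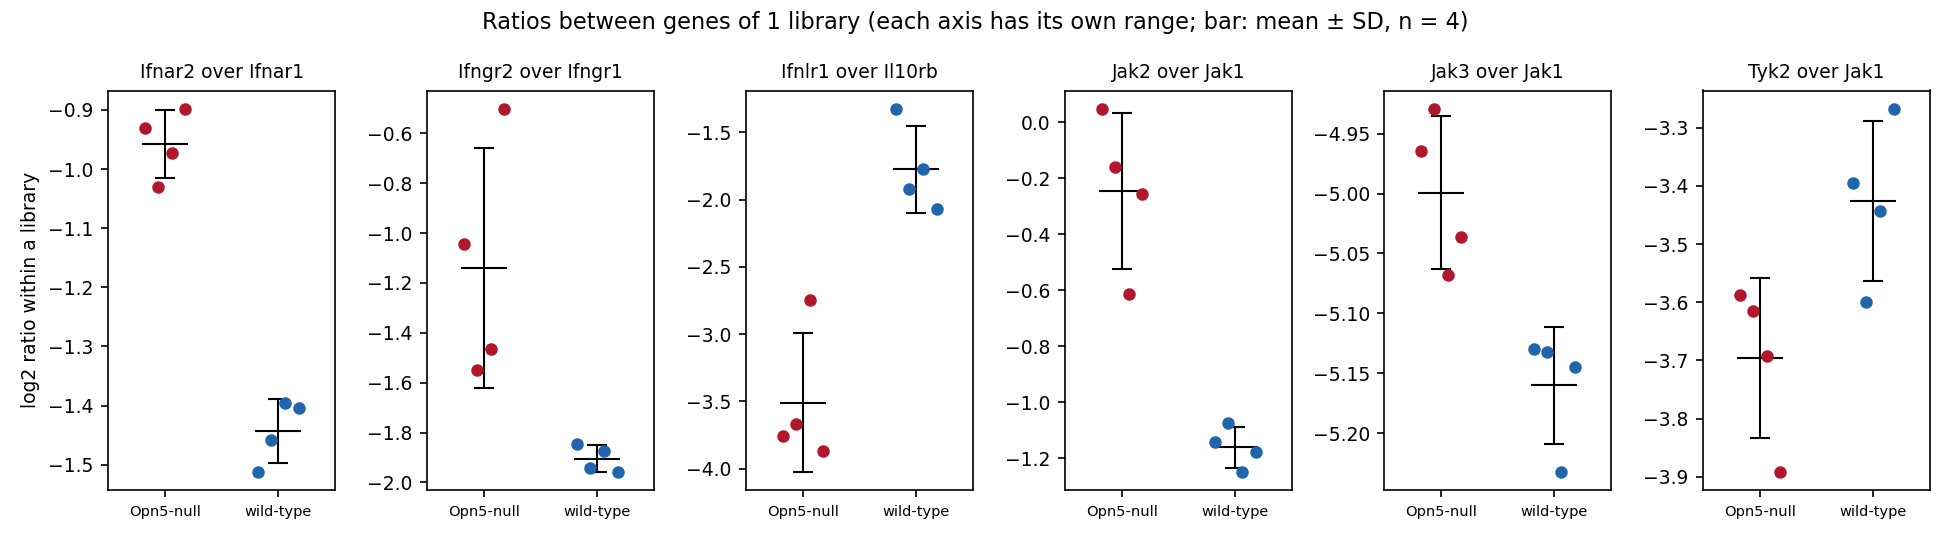
Log2 ratios between 2 genes of the same library, with Opn5-null libraries in red at the left and wild-type libraries in blue at the right, and the mean ± SD of 4 libraries; each panel has its own range. Red and blue points are apart in 5 panels and overlap for Tyk2 over Jak1, and the Ifnlr1 over Il10rb ratio differs by -1.74 between the group means, the widest shift of the 6.

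Levels were set against one another per kilobase of annotated exon, since counts grow with transcript length. In Opn5-null corneas Ifngr1 averaged 2219 ± 668 and was followed by Il10rb with 1032 ± 350, Ifngr2 with 738 ± 135, Ifnar1 with 652 ± 166, Ifnar2 with 600 ± 160 and Ifnlr1 with 79.5 ± 14.7 normalized counts per kilobase (SD, n = 4). There, the ranges of neighbours overlapped everywhere but between Ifnar2 and Ifnlr1. Within every single Opn5-null library, though, Ifngr1 was above Il10rb, Ifngr2 above Ifnar1 and Ifnar1 above Ifnar2. Il10rb was above Ifngr2 in Opn5-null A, B and D but not in C, with 609 against 621. In wild-type corneas the order of the chains was Ifngr1 with 1792 ± 63.4, Ifngr2 with 362 ± 12.4, Il10rb with 273 ± 29.7, Ifnar1 with 268 ± 12.8, Ifnar2 with 176 ± 13.7 and Ifnlr1 with 72.5 ± 8.77 normalized counts per kilobase (SD, n = 4). Neighbours in this order were apart in all libraries except Il10rb and Ifnar1, whose ranges overlapped.

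As a share of the summed level of the 6 chains per kilobase, Ifngr1 held 41.6% ± 9.63 in Opn5-null corneas, against 60.9% ± 0.268 in wild-type ones (SD, n = 4). Il10rb held 19.3% ± 4.69 in Opn5-null corneas, against 9.25% ± 0.709 in wild-type ones. Ifnar2 held 11.3% ± 2.12 in Opn5-null corneas, against 5.97% ± 0.251 in wild-type ones. These shares are descriptions and were not tested.

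Among the kinases, Jak2 had 1632 ± 516 and Jak1 1303 ± 180 normalized counts per kilobase in Opn5-null corneas (SD, n = 4), with ranges that overlapped. In wild-type corneas Jak2 had 622 ± 30.2 and Jak1 averaged 969, ranging from 916 to 1054, with Jak1 above Jak2 in every library. Jak2 made up 51.9% ± 4.69 of the kinase level in Opn5-null corneas, against 36.1% ± 1.26 in wild-type ones. Tyk2 and Jak3 followed in both groups, and their ranges were apart in each group. Tyk2 ranged from 89.0 to 134 in Opn5-null and from 83.5 to 103 in wild-type libraries. Jak3 ranged from 44.1 to 66.1 in Opn5-null and from 35.2 to 37.7 in wild-type libraries.

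The chains Ifnar2, Il10rb, Ifnar1 and Ifngr2 lie in that order on the plus strand of chromosome 16, within 193 kb (91372783 to 91565623 in GENCODE M21, GRCm38). Of the 492 genes tested on this chromosome 21.7% were called higher. The 4 nearest measured genes on each side were looked up after the members' values were seen. On the left, 328 kb from Ifnar2, Paxbp1 had a log2 fold change of 0.06 ± 0.09 (SE, limma adjusted p = 0.651). Beyond it Synj1, which encodes a phosphoinositide phosphatase of nerve endings, was higher by 0.74 (limma adjusted p = 0.0055), while 4930404I05Rik and 1110004E09Rik did not pass.

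On the right, Tmem50b begins 8879 bases beyond Ifngr2 and had a log2 fold change of -0.44 with a 95% interval from -1.03 to 0.15 (limma adjusted p = 0.225). Gart, a purine synthesis enzyme gene, fell by 0.29 on the log2 scale (limma adjusted p = 0.0139), and Dnajc28 did not pass. Gm15964, annotated as antisense and overlapping Dnajc28 and Gart, was higher by 0.87 (limma adjusted p = 0.0317). Inside the cluster the processed pseudogene Gm7860 was higher by 2.87 (limma adjusted p = 0.00598), with 74 reads over the Opn5-null and 8 over the wild-type libraries. Reads of pseudogenes and overlapping genes can be shared with other genes, so the values of Gm7860 and Gm15964 are uncertain.

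**Figure D4:**
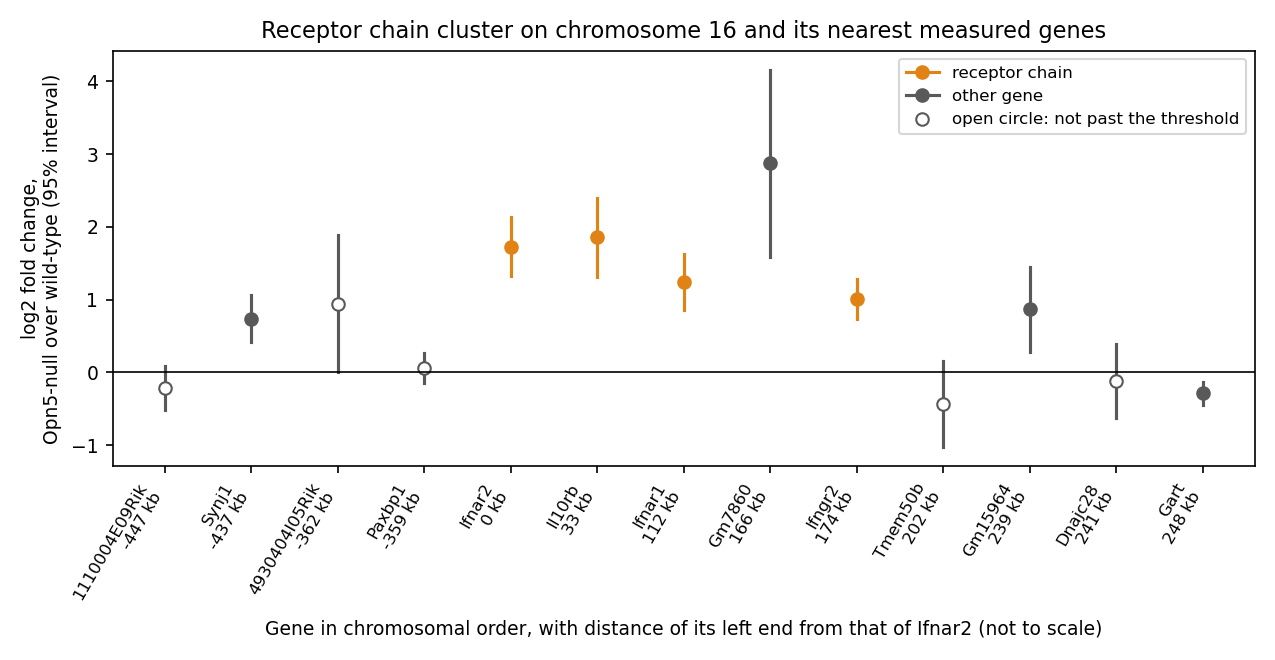
Log2 fold changes, Opn5-null over wild-type, with 95% intervals, of the receptor chains on chromosome 16 (orange) and their nearest measured genes (grey) in chromosomal order, with distances from the start of Ifnar2 in kb. The 4 orange intervals lie above 0, from 1.01 for Ifngr2 to 1.86 for Il10rb, while Paxbp1 at the left and Tmem50b at the right have open circles and did not pass the threshold.

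Within Opn5-null corneas the members moved with the library. Opn5-null A was the highest Opn5-null library for 9 of the 10 genes, against 32.7% of all genes tested, and Opn5-null C was the lowest for 7, against 30.1% of all genes. Leukocyte markers had the same order at its ends. The mean log2 level of 5 markers of all leukocytes stood above the wild-type mean by 3.12 in Opn5-null A, 2.68 in B, 1.89 in C and 2.96 in D. Opn5-null A was also highest and C lowest for the STAT genes with Irf9, the inhibitors and the interferon gamma targets described below. The same held for the other receptor chains and for neutrophil and macrophage markers. T and NK cell markers were lowest in Opn5-null D, and type I and III interferon targets were lowest in A and highest in D.

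The genes most like Il10rb over the 8 libraries were Birc3, an inhibitor of apoptosis, N4bp1 and Dennd4b, with Pearson r of 0.999, 0.998 and 0.998 on the log2 scale. For Jak2 they were the phosphatase gene Dusp16, the cathepsin gene Ctsc and the cholesterol exporter gene Abca1, each with r from 0.997 to 0.998. After each genotype's mean was subtracted, r was between 0.983 and 0.992 for these 6 genes. They were picked for a high r over the same libraries, so these values are not separate support. What the subtraction leaves lies mainly between Opn5-null libraries. The SD of Jak2 was 2596 normalized counts there, against 152 in wild-type ones. Among the members, Ifnar2 followed Il10rb most closely after that subtraction, with r = 0.995. Ifnar1 followed Jak2 most closely with 0.989, and Jak3 was next with 0.984. Ifngr1 had r of 0.0905 with Il10rb and 0.233 with Jak2. These values describe likeness over 8 libraries that share their genotype difference. The genes were searched from genes tested with a mean of at least 10 normalized counts, leaving out predicted-gene, Rik and clone names.

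Downstream of the kinases, all 7 genes of a list of STAT genes and Irf9 rose, against 18.8% of all genes tested. Their median log2 fold change was 1.21, against -0.02 over all genes tested. The count was 5 after quantile normalization or upper-quartile scaling, and 5 or 6 when Opn5-null A, Opn5-null B or any 1 of the wild-type libraries was left out. Stat5b had overlapping groups and a log2 fold change of 0.33 (limma adjusted p = 0.0361). Irf9, the DNA-binding partner of Stat2 in type I interferon signalling, averaged 3256 ± 627 normalized counts in Opn5-null corneas, against 1065 ± 70.1 in wild-type ones (SD, n = 4), a log2 fold change of 1.60 (limma adjusted p = 0.000106). Stat2 had a log2 fold change of 1.49 (limma adjusted p = 0.000868). Stat4, a lymphocyte STAT, was higher by 3.01 on the log2 scale (limma adjusted p = 0.000679). All 20 type I and III interferon targets rose, among them the antiviral genes Rsad2 by 5.61 and Mx1 by 4.98 on the log2 scale. Opn5-null D stood apart here, with 50678 normalized counts of Rsad2 against 10480, 16549 and 12341 in Opn5-null A, B and C, and a mean log2 level of the list 3.71 above the wild-type mean against 2.53, 2.80 and 2.64. All 20 were also called without Opn5-null D. Of 16 interferon gamma targets 15 rose, among them the chemokine gene Cxcl10 by 5.75 and the guanylate-binding protein gene Gbp5 by 4.62. Cxcl10 was also highest in Opn5-null D, with 9327 normalized counts against 2183, 3044 and 2704 in Opn5-null A, B and C. Gbp5 was highest there too, with 3377 against 1932, 2884 and 1681. The interferon gamma list as a whole was highest in Opn5-null A. Ciita had a log2 fold change of 0.90 and did not pass (limma adjusted p = 0.102). The interferon genes themselves were not analysed here.

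Of 18 inhibitors of the pathway, 7 rose, 1 fell and 10 did not pass, with a median log2 fold change of 0.32. Over all genes tested, 18.8% were called higher and 13.5% lower. Socs3, an inhibitor bound to cytokine receptors and Janus kinases, averaged 11786 ± 5510 normalized counts in Opn5-null corneas, against 1529 ± 514 in wild-type ones (SD, n = 4), higher by 2.88 on the log2 scale. Usp18, which binds Ifnar2 and limits type I signalling, was higher by 2.57 (limma adjusted p = 0.000885). Usp18 was also counted among the 20 type I and III interferon targets, so these lists share a gene. The member that fell was Pias3, with 437 ± 16.7 normalized counts in Opn5-null corneas, against 684 ± 42.4 in wild-type ones (SD, n = 4).

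Other receptor chains that use Janus kinases rose in 17 of 29 cases and fell in 3, with a median log2 fold change of 1.04. The shares of all genes tested were 18.8% higher and 13.5% lower. Il10ra, which pairs with Il10rb for interleukin 10, was higher by 3.41 on the log2 scale, with 3021 ± 1656 normalized counts in Opn5-null corneas, against 260 ± 85.9 in wild-type ones (SD, n = 4). Il22ra1, the epithelial partner of Il10rb for interleukin 22, had 88.2, 108, 102 and 12.2 normalized counts in Opn5-null A to D, against 65.4, 49.6, 66.9 and 65.4 in wild-type A to D, and did not pass (limma adjusted p = 0.96). Opn5-null D was the low library, as for Ifngr1. Csf2rb2, a beta chain that uses Jak2, was higher by 3.47, though its reads can be shared with its close copy Csf2rb. Those that fell were Cntfr, Lepr and Il11ra1, and Cntfr fell by 2.68 on the log2 scale. Il11ra1 had overlapping groups (limma adjusted p = 0.0428), and the count that fell was 2 in edgeR and when any 1 library other than Opn5-null C was left out.

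**Figure D5:**
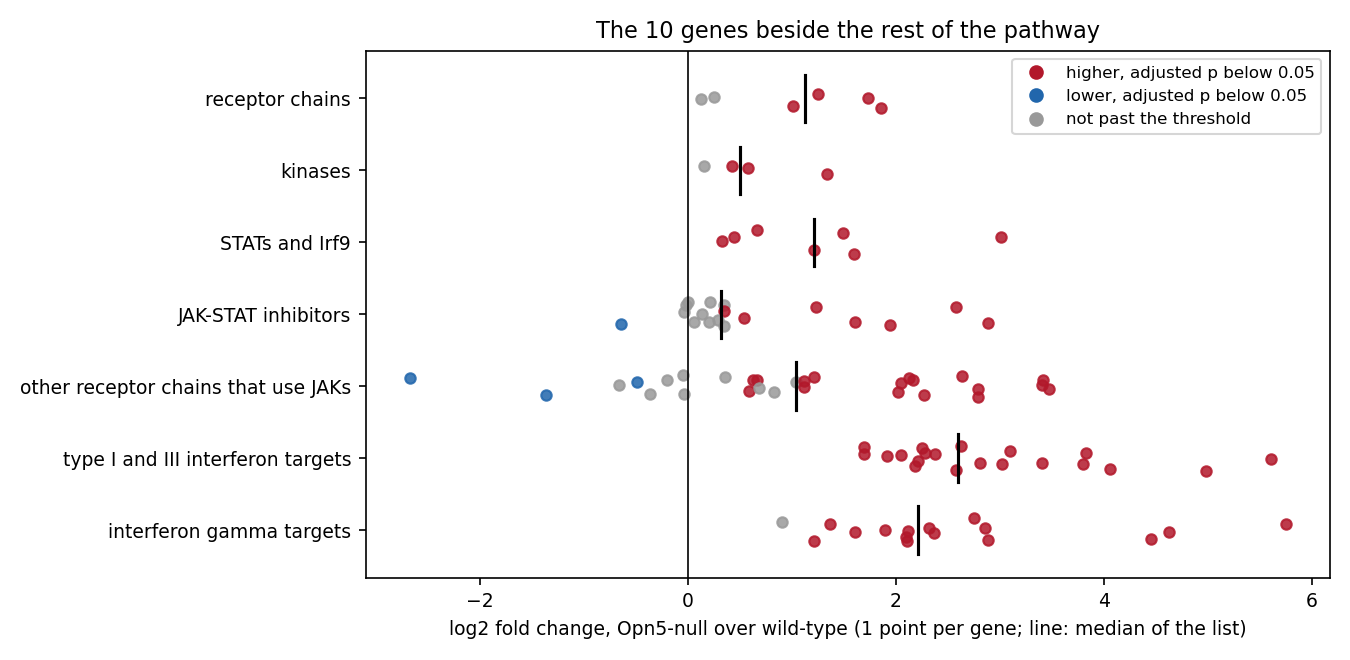
Log2 fold changes, Opn5-null over wild-type, of the 10 genes and of 5 lists of the same pathway, 1 point per gene, with red for higher, blue for lower and grey for not past the threshold, and a black line at each list's median. The receptor chains have a median of 1.13 and the kinases of 0.50, the listed STAT genes with Irf9 of 1.21, the inhibitors of 0.32, and the type I and III interferon targets of 2.60.

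Markers of infiltrating cells moved with the receptors and kinases, and their part in the results was not tested. Over all genes tested, 18.8% were called higher. All 5 leukocyte markers rose, with summed levels from 21961 to 56022 normalized counts in Opn5-null libraries, against 3983 to 7093 in wild-type ones. Of 10 neutrophil markers 8 rose, with sums from 38596 to 129878 in Opn5-null libraries, against 14354 to 29343 in wild-type ones. S100a8 and S100a9 made up most of these sums, with 30659 and 69082 normalized counts in Opn5-null A. Retnlg rose with overlapping groups (limma adjusted p = 0.0191). Of 11 macrophage markers 8 rose, with sums from 27329 to 44801 in Opn5-null libraries, against 7166 to 9671 in wild-type ones. Of 13 T and NK cell markers 11 rose, with sums from 553 to 1342 in Opn5-null libraries, against 146 to 190 in wild-type ones. Cd3e rose with overlapping groups (limma adjusted p = 0.0463). In each list the largest changes among called genes, on the log2 scale, were those of Itgb2 (3.23) and Lcp1 (2.98) for leukocytes, Fpr1 (3.33) and Ly6g (2.76) for neutrophils, Ly6c2 (4.56) and Fcgr1 (3.78) for macrophages, and Gzmb (4.59) and Gzma (3.88) for T and NK cells. Ly6c2 and Fcgr1 were highest in Opn5-null D, with 3344 and 2766 normalized counts, against 1986 and 1817 in A. The macrophage list as a whole was highest in A. The markers that did not pass were Mmp8 (-0.75) and Ngp (1.55) for neutrophils, and C1qa (0.06), C1qb (-0.29) and C1qc (0.07) for macrophages. For T and NK cells they were Cd3d (1.49) and Cd4 (0.74). No marker of these lists was at 0 in all libraries.

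Markers of the resident tissue had fewer calls than those of infiltrating cells. Over all genes tested, 18.8% were called higher and 13.5% lower. Of 10 corneal epithelial markers 2 fell (Krt15 and Klf5), and the sums of all 10 ran from 99126 to 419798 normalized counts in Opn5-null libraries, against 534805 to 691814 in wild-type ones. Krt12, Krt5, Krt14, Cdh1 and Epcam did not pass, though all their Opn5-null libraries lay below all wild-type libraries. Krt15 fell by 1.72 and Klf5 by 0.92 on the log2 scale. The count of those that fell was 6 when Opn5-null D was left out, 4 for Opn5-null C and 0 when any 1 of the wild-type libraries was left out. Of 7 keratocyte markers 2 rose (Lum and Col5a1) and 1 fell, with 4 that rose without Opn5-null A or without wild-type C. The marker that fell, Ogn, was not called without Opn5-null B or D or any of the wild-type libraries. Of 4 corneal endothelial markers, Slc4a11 fell, and of 4 vascular endothelial markers Cdh5 and Pecam1 rose, with 1 without Opn5-null A, Opn5-null B or wild-type D and 0 without wild-type A, B or C. Pecam1 had overlapping groups, with 757 normalized counts in Opn5-null C against 779 in wild-type D (limma adjusted p = 0.0262).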

How the data were processed

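RNA of 8 mouse cornea samples (4 Opn5-null, 4 wild-type) was depleted of ribosomal and globin RNA and sequenced as a stranded total-RNA library, per the labels' protocols. RSEM 1.3.1 is named in the submitters' processing notes, while which aligner, build, annotation and strand setting were used is not given in the sources used here. Per gene and library, the deposited table gives a normalized signal, beside the authors' log2 fold change and the authors' p-value, raw and adjusted. Dividing each column by its smallest value above 0 gave whole reads for 100% of values within a tolerance of 0.001, so the signal is a read count divided by a size factor.

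The values were tested as log2(value + 1) with limma 3.58.1 (trend and robust, R 4.3.3) over the 16085 of 16091 genes that reached a value of 1 in 4 or more libraries, with Benjamini-Hochberg adjustment over all of them and a threshold of 0.05. Fold changes on this scale understate the change of low genes. Ratios between genes, taken of value + 1, were compared with exact permutation tests in scipy 1.17.1, adjusted over 6 ratios. Alternatives were another pseudocount, filter and scaling, a replicate block, edgeR 4.0.16, DESeq2 1.42.0 and limma-voom on recovered reads, and leaving out each library. The fit was also run on simulated data with the same spread in both groups. The Opn5-null libraries here spread more than the wild-type ones. That run therefore does not test calls made under unequal spread. Coordinates and exon lengths are from GENCODE M21 (GRCm38), matched by gene identifier.

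The members and all lists were chosen with earlier results of these data known. All 10 members are described, with the 2 called genes of largest fold change from each list and genes needed for background. Genes named because they fell, and the neighbours on chromosome 16, were picked after their values were seen. The list of STAT genes does not hold the whole family, and 1 gene is not reported here.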

Additional observations from a re-analysis of the deposited data

Results flagged for a closer look

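Of 32 groups of 4 libraries tested for a lone value, 2 had a library far from the other libraries of its group, and chance flags about 1 in 20. Ifnar2 had 518 normalized counts in wild-type A, below 600, 610 and 616 in the other wild-type libraries. The log2 ratio of Jak3 to Jak1 was -5.23 in wild-type C, below the other wild-type libraries.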

How the results depend on the processing

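Between 6 and 8 members were called higher and 0 lower under 19 alternatives, and no value changed direction. Jak1 lost its call in 4 of them, the replicate block among them (limma adjusted p = 0.0594), and Ifngr1 gained one in 3, of which the fit without both libraries lettered D (0.50, limma adjusted p = 0.00911) was chosen after seeing the data. Among all genes, 2175 were called lower, against 3746 after quantile normalization, 3671 after upper-quartile scaling and 3491 with limma-voom, and these scalings (quantile and upper-quartile) gave all genes a median log2 fold change of -0.13, against -0.02 as deposited. Leaving out 1 library gave 1078 to 2540 genes lower and 2225 to 3365 higher, with 1078 when wild-type A was left out, 1242 for wild-type C and 1288 for wild-type D. The recovered reads gave 3102 higher and 2023 lower in edgeR, and 3516 and 2716 in DESeq2. Libraries of the same letter did not deviate together (correlations from -0.156 to 0.138), so the letters were not used as pairs, and the replicate block gave 2545 genes higher and 1691 lower, with 5 of the 7 listed STAT genes and Irf9 higher. The ratio tests kept their direction without each library, with adjusted p from 0.0571 to 0.0686, where 3 against 4 samples cannot go below 0.0571 in an exact test, and sign flips of same-letter pairs gave the smallest p they can, 0.125. With limma-voom 12 inhibitors were called higher, against 7. Corneal epithelial markers called lower ranged from 0 to 6 over the alternatives, and keratocyte markers called higher from 1 to 5.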
